A study of Mus musculus with 24 samples.

Results

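The retinal pigment epithelium (RPE) of control mice was compared between 3 months of age (3M, 4 libraries) and postnatal day 29 (P29, 4 libraries), which are 8 of the 24 libraries of the series. The 8 were chosen by their labels, as all control libraries of these ages, and no measured value was used in that choice. Earlier results of these data were known when the libraries and the gene lists used below were chosen. All RNA came from isolated RPE cells of mice of mixed strain background. Both ages carry Cre recombinase driven by the Dct promoter (Dct-Cre), which is active in pigment cells, and no floxed Ift20 allele is named for them. The mutant libraries, used further below, carry the floxed allele IFT20 together with the same Cre, and also number 4 at 3M and 4 at P29. Controls at P11 (4 libraries) were used for an earlier step. The labels call the libraries of a group biological replicates but do not say whether each is 1 animal or a pool, and sex was not recorded, so p-values measure the spread between these libraries.

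The RPE is a single pigmented layer behind the photoreceptors. It turns all-trans retinol back into 11-cis retinal for the visual pigments (the visual cycle), takes up shed rod and cone outer segments, moves ions, water, glucose and lactate between choroid and retina, keeps iron and other metals bound, and secretes much of the Bruch membrane. Melanin is made mostly before and shortly after birth in mice, while outer segment renewal continues through life. Retina, choroid and blood lie against the layer, so a dissected RPE sample usually holds some of their RNA.

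Each library held 2009047 to 2792369 counts over genes, so that 3 counts, the floor used here, equal 1.07 to 1.49 CPM (a gene's share of the library's counts, scaled to a common size by edgeR's TMM factors). RPE markers added up to 64581 to 67386 CPM at 3M and 48253 to 48955 CPM at P29, with all 12 markers detected at both ages, so the tissue label held. Rod markers added up to 5221 to 5680 CPM at 3M and to 14174 to 14702 CPM at P29. Genes with a count averaged 13242 ± 98.5 at 3M and 13816 ± 196 at P29 (SD, n = 4 each), and the 50 most counted genes held 39.2% ± 0.632 of counts at 3M and 35.2% ± 0.245 at P29. Both differences had an exact two-sided permutation p of 0.0286, the smallest that 4 against 4 allows (0.0381 adjusted over 8 library measures). Xist, transcribed from the inactive X chromosome of females, had 0, 0, 4.79 and 0 CPM at 3M, against 138, 153, 153 and 151 CPM at P29. The Y-linked gene Ddx3y was present at both ages, at 172 to 192 CPM at 3M and 153 to 182 CPM at P29. The sex makeup of the libraries therefore moved with age in controls, and sex and age cannot be told apart there. Every P29 library held both Xist and Ddx3y, so each held RNA of both sexes. The p-values below therefore need not measure the spread between animals. The third 3M library stood apart in stromal genes (Col1a1 at 292 CPM, against 42.0 to 69.5 CPM in the other 3M libraries) and is left out where stated. The sources used here do not state strand use in counting. The 3′ ends of Lrat, Pmel, Mt2, Manf, Pdia6, Srebf1, Kcnj13, Car14, Ctsb, Timp3, Col4a1, Junb, Ciart, Dbp, Opn1sw, Cryaa, Cryba1, Cx3cr1, Xist and Csf1r lie over an opposite-strand gene, and those of Trf and Mobp over a same-strand one, so their counts are less certain.

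Of 12303 genes tested, 429 were higher at 3M than at P29 (3.49% of genes tested) and 1046 were lower (8.5%), at a Benjamini-Hochberg adjusted p under 0.05 in edgeR's quasi-likelihood test. Together 12% of genes tested were called, the share to set beside the list counts below. The median log2 fold change of all tested genes was -0.03. Changes over 2-fold numbered 46 among the genes that rose and 692 among those that fell. The groups did not overlap for 741 genes with higher values at 3M (6.02%) and for 1106 with lower ones (8.99%). A fit to the 8 libraries alone, which tested 10421 genes, called 563 higher and 800 lower. Adding a score of Y-linked genes and Xist to the model left 17 calls upward and 48 downward, and adding a score of rod markers left 1 each way. Of these scores' variance over all 24 libraries, 97.11% for sex and 99.83% for rods lay between the 6 groups of genotype and age. Neither can be separated from age in the control libraries, and their part in the results was not tested.

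The visual cycle and its retinoid carriers rose. Of 14 tested genes, 9 were higher at 3M and 1 was lower, and the list's median log2 fold change was 0.36. The RPE marker list shares Rpe65, Rlbp1, Lrat, Ttr and Rgr with it. Of 11 tested RPE markers, 9 were higher and 1 was lower (median 0.38), so the rise was not particular to the visual cycle list. Rgr, an opsin of the RPE that takes part in retinal isomerisation in light, had 10096, 9750, 10054 and 10448 CPM at 3M, against 5472, 5491, 5723 and 5396 CPM at P29. The groups lay far apart, and its log2 fold change of 0.87 ± 0.05 (SE) had an adjusted p of 1.31e-31. Rdh5, the 11-cis retinol dehydrogenase, had 5251, 5222, 4966 and 5233 CPM at 3M, against 3739, 3769, 3406 and 3732 CPM at P29 (log2 fold change 0.50 ± 0.05, adjusted p = 6.25e-14). Rlbp1, which encodes the 11-cis retinal binding protein CRALBP, was higher by 0.51 ± 0.05 on the log2 scale. Rdh11, another retinol dehydrogenase, was higher by 0.64 ± 0.12, at 195 to 242 CPM at 3M and 124 to 159 CPM at P29.

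Of the 9 genes that rose, the isomerase had the smallest fold change. Rpe65, which converts retinyl esters to 11-cis retinol, had 8765, 8859, 8253 and 8395 CPM at 3M, against 7593, 7831, 7390 and 7854 CPM at P29. The groups did not overlap, but the log2 fold change was 0.16 ± 0.04 (adjusted p = 0.00534). Lrat, which makes the retinyl esters, rose by 0.25 ± 0.06 and Rdh10, an all-trans retinol dehydrogenase, by 0.29 ± 0.06. Ttr, the carrier of thyroxine and of retinol binding protein, had 34178 to 36486 CPM at 3M and 25746 to 26471 CPM at P29 (log2 fold change 0.43 ± 0.03). The 1 gene that fell was Rbp3, whose product is made by photoreceptors, with 99.3 to 130.1 CPM at 3M and 316 to 334 CPM at P29 (log2 fold change -1.54 ± 0.09). All of these counts are shares of a library, so a change in one kind of RNA moves the others, and in such bulk samples fewer cells of a type and less RNA per cell cannot be told apart.

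**Figure D1:**
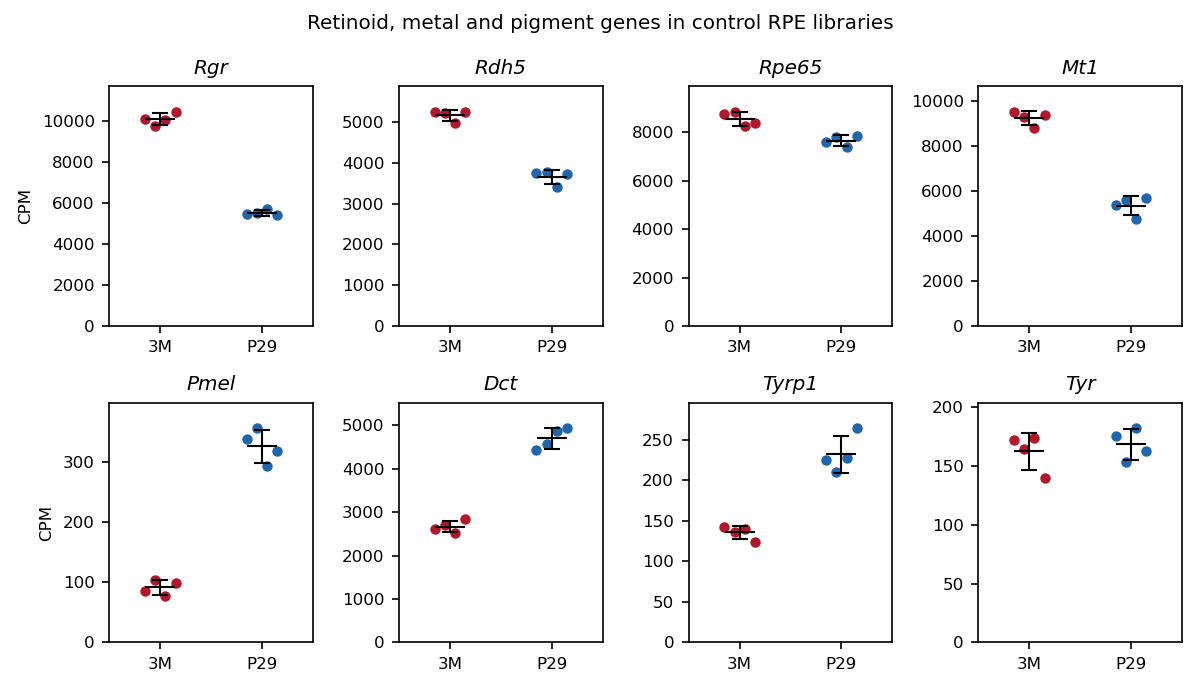
CPM (vertical axis, from 0) of 8 genes in the 4 control libraries at 3M (red) and the 4 at P29 (blue), with the mean and SD as bars. Rgr, Rdh5, Rpe65 and Mt1 were higher at 3M, Pmel, Dct and Tyrp1 were lower, and the Tyr points lie between 139 and 173 CPM at 3M and between 153 and 182 CPM at P29.

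Pigment genes split. Of 14 tested genes for melanin synthesis and melanosomes, 4 fell and 2 rose, with a list median of -0.11. Pmel, the amyloid scaffold of the early melanosome, had 85.0, 104, 77.6 and 99.8 CPM at 3M, against 338, 357, 294 and 318 CPM at P29. The highest 3M library was well below the lowest P29 library, and the log2 fold change was -1.84 ± 0.09 (adjusted p = 8.84e-33). Dct, the dopachrome tautomerase of eumelanin synthesis and the gene whose promoter drives the Cre in all of these mice, had 2607, 2703, 2520 and 2834 CPM at 3M, against 4440, 4564, 4860 and 4933 CPM at P29 (log2 fold change -0.82 ± 0.05, adjusted p = 2.8e-28). Tyrp1, the next enzyme of the pathway, had 143, 136, 140.3 and 124 CPM at 3M, against 226, 211, 228 and 265 CPM at P29 (-0.77 ± 0.09, adjusted p = 1.14e-10). Tyr, the rate-limiting enzyme, had 173, 165, 173 and 139 CPM at 3M, against 176, 153, 182 and 162 CPM at P29 (log2 fold change -0.05 ± 0.12, adjusted p = 0.863). Mitf, the transcription factor of pigment cells, had 155 to 167 CPM at 3M and 163 to 197 CPM at P29 (-0.17 ± 0.11, adjusted p = 0.397). Tyr and Mitf were picked for description after their values were seen.

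Mlana, a melanosome protein that binds Pmel, was lower by -0.55 ± 0.16 on the log2 scale (adjusted p = 0.0119). That call missed the threshold without the third P29 library (-0.45, adjusted p = 0.0916) and without the third 3M library (-0.42, adjusted p = 0.111). The 2 genes that rose were Rab27a, which tethers mature melanosomes to the actin network (0.48 ± 0.11), and Tspan10, a tetraspanin of pigment cells (0.47 ± 0.09). Markers of choroidal melanocytes, of which 3 of 7 tested fell, share several of these genes, and their summed level was 563 to 584 CPM at 3M and 674 to 714 CPM at P29, so their part was not tested.

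The promoters of 3 of the enzymes are printed because all hold the same short motif while their RNAs differed. The motif searched was CATGTG, the core of the M-box that MITF binds, on either strand, in the window from 250 bases before to 50 bases after the annotated start (RefSeq, GRCm38.p6). It was present in 14.2% of 32851 such windows, and capitals mark it below. The windows are chr4:80833963-80834262 on the plus strand for Tyrp1, chr14:118052197-118052496 on the minus strand for Dct and chr7:87493463-87493762 on the minus strand for Tyr.
Tyrp1: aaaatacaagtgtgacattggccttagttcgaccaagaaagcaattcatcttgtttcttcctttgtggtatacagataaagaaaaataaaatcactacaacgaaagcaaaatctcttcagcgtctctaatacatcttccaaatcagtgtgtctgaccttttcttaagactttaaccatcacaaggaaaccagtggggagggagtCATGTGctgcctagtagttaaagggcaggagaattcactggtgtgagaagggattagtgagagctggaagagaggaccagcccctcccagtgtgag
Dct: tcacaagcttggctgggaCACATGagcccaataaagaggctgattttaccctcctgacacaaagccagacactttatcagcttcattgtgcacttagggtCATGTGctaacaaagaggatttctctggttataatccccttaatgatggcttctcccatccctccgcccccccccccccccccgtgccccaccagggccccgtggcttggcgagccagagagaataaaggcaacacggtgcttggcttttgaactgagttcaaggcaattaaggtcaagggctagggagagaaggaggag
Tyr: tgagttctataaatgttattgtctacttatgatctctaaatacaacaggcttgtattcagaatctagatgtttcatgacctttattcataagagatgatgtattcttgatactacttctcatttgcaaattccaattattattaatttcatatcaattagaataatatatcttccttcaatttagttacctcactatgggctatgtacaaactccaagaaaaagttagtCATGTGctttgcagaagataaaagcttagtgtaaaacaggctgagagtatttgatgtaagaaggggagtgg
The match begins 46 bases before the start in Tyrp1, which fell, and 21 bases before it in Tyr, which did not pass the test. Dct, which fell, holds 2 matches, at 232 bases (on the reverse strand) and at 150 bases before the start. Both genes that fell and one that did not pass the test therefore hold the motif, and a match describes letters, not binding.

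Both metallothionein genes of the antioxidant list rose. Mt2 and Mt1 encode metallothioneins, small cysteine-rich proteins that bind zinc and copper. Mt2 had 5584, 5796, 4876 and 5219 CPM at 3M, against 2890, 2844, 2794 and 2839 CPM at P29 (log2 fold change 0.92 ± 0.06, adjusted p = 2.6e-23). Mt1 had 9527, 9295, 8821 and 9380 CPM at 3M, against 5358, 5614, 4748 and 5692 CPM at P29 (0.79 ± 0.05, adjusted p = 6.89e-24). The libraries of both ages were tightly grouped and did not overlap for either gene. Of 22 tested antioxidant genes, 6 rose and 1 fell (median 0.10). Among them was Prdx6, a peroxiredoxin, which was higher by 0.44 ± 0.10. Without the fourth 3M library 3 were called higher, and the fall was lost when any library but replicate 3 at P29 or replicate 1 at 3M was left out. Of 13 iron genes, 2 rose and none fell (15.4% called, where 12% of all genes tested were called and 3.49% were higher). Trf, transferrin, had 12864, 12610, 12548 and 13251 CPM at 3M, against 8236, 8718, 8322 and 8276 CPM at P29 (0.61 ± 0.04, adjusted p = 1.03e-23). Fth1, the ferritin heavy chain that stores iron, had 962 to 1045 CPM at 3M and 786 to 848 CPM at P29 (0.28 ± 0.07, adjusted p = 0.00245).

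Several chaperones of the endoplasmic reticulum (ER) rose. Of 18 tested genes of ER and integrated stress, 8 rose and 1 fell, with a list median of 0.31. Xbp1, the transcription factor of the unfolded protein response, had 87.1, 87.6, 97.6 and 76.8 CPM at 3M, against 40.7, 43.4, 49.4 and 41.6 CPM at P29 (log2 fold change 0.99 ± 0.19, adjusted p = 2.29e-05). Manf, a secreted ER stress factor, had 100.1, 76.3, 113 and 96.6 CPM at 3M, against 58.9, 51.4, 46.5 and 41.1 CPM at P29 (0.96 ± 0.17, adjusted p = 1.16e-05). Hspa5, the ER chaperone BiP, had 976 to 1066 CPM at 3M and 722 to 770 CPM at P29 (0.47 ± 0.07), and Pdia6, a disulfide isomerase, was higher by 0.56 ± 0.13. The gene that fell was Atf4, the transcription factor of the integrated stress response, with 163 to 228 CPM at 3M and 259 to 294 CPM at P29 (-0.45 ± 0.10, adjusted p = 0.000571).

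Cytosolic heat shock genes went both ways, with 5 of 15 tested higher and 2 lower (median 0.15). Cryab, a small heat shock protein also abundant in lens, had 411 to 447 CPM at 3M and 233 to 278 CPM at P29 (0.74 ± 0.09, adjusted p = 2.48e-10). Hspa8, the constitutive HSP70, was higher by 0.52 ± 0.09. The stress-inducible pair fell. Hspa1a had 11.4 to 18.97 CPM at 3M and 34.98 to 45.03 CPM at P29 (-1.47 ± 0.30), and Hspa1b had 3.92 to 16.8 CPM at 3M and 34.3 to 53.5 CPM at P29 (-2.22 ± 0.37). These 2 genes are near-identical copies, so the split of reads between them is uncertain. Without the second P29 library 3 heat shock genes were called higher.

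Sterol synthesis genes fell while the regulator of fatty acid synthesis rose. Of 18 tested genes of cholesterol synthesis, 6 fell and none rose (median -0.31). Hmgcs1, an early enzyme of the pathway, had 114, 96.7, 92.4 and 121 CPM at 3M, against 212, 215, 205 and 218 CPM at P29 (log2 fold change -1.0004 ± 0.12, adjusted p = 9.78e-11). Msmo1, a demethylating enzyme further along, was lower by -0.96 ± 0.13. Of 16 genes of fatty acid synthesis and lipid efflux, 2 rose and 1 fell, with 0 to 2 falls when 1 library was left out (0 without replicate 2 or 3 at P29 or replicate 1 or 2 at 3M, and 2 without replicate 1 at P29 or replicate 4 at 3M). Srebf1, the transcription factor that drives fatty acid synthesis, had 69.0, 73.6, 85.0 and 78.4 CPM at 3M, against 23.2, 33.9, 35.4 and 32.7 CPM at P29 (1.29 ± 0.21, adjusted p = 7.9e-07).

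Fuel genes also divided. Of 18 tested genes of fatty acid oxidation and ketone bodies, 5 rose and none fell (median 0.24). Acaa2, the last enzyme of the oxidation cycle, had 169, 157, 185 and 179 CPM at 3M, against 110, 142, 97.3 and 120 CPM at P29 (0.56 ± 0.13, adjusted p = 0.000598). Of 17 glycolysis genes, 6 fell and none rose, with a median of -0.09, and 1 rose without replicate 4 at P29 or replicate 2 at 3M, in the fit to the 8 libraries and in limma voom. Hk2, a hexokinase, had 45.7 to 51.9 CPM at 3M and 64.6 to 123 CPM at P29 (-0.995 ± 0.17), Pkm, pyruvate kinase, had 443 to 545 CPM at 3M and 723 to 803 CPM at P29 (-0.62 ± 0.07), Ldha was lower by -0.58 ± 0.11 and Aldoc by -0.88 ± 0.15. Photoreceptors express these glycolysis genes at high levels, and rod markers fell over the same step, whose part was not tested. None of 29 nuclear genes of oxidative phosphorylation passed in the edgeR fit to all 24 libraries, where the smallest adjusted p was 0.104. In limma voom and in the edgeR fit to the 8 libraries 1 was higher, and 2 were without the third P29 library. Mitochondrial transcripts took 4.83% ± 0.392 of counts at 3M and 5.05% ± 0.305 at P29 (SD, n = 4 each, exact permutation p = 0.4).

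Membrane transport genes moved in both directions. Of 14 tested metabolite transporters, 6 rose and 5 fell. Slco1c1, a thyroid hormone and organic anion transporter, had 233, 261, 255 and 279 CPM at 3M, against 127, 127, 122 and 116 CPM at P29 (log2 fold change 1.06 ± 0.12, adjusted p = 9.62e-12). Slc38a2, a neutral amino acid transporter, had 31.98 to 55.4 CPM at 3M and 82.2 to 131 CPM at P29 (-1.13 ± 0.16), and Slc22a8, an organic anion transporter, had 330 to 395 CPM at 3M and 463 to 559 CPM at P29 (-0.55 ± 0.09). Without the fourth 3M library 3 transporters were called higher, and without the second P29 library 3 were called lower. Of 15 ion channel and ion transport genes 4 rose and 2 fell, and 1 fell without replicate 1 or 2 at P29 or replicate 4 at 3M, in the fit to the 8 libraries and in limma voom. Kcnj13, the potassium channel Kir7.1 of the apical membrane, had 967 to 1020 CPM at 3M and 645 to 712 CPM at P29 (0.56 ± 0.08, adjusted p = 3.83e-09), and Car14, a membrane carbonic anhydrase, was higher by 0.28 ± 0.06.

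Genes for the uptake of outer segments were mixed, with 4 of 17 higher and 3 lower (median 0.18). Itgav, the integrin subunit that binds outer segments, rose by 0.41 ± 0.10 on the log2 scale. Mertk, the receptor kinase that triggers engulfment, was higher by 0.30 ± 0.10 (adjusted p = 0.0328), a call that was lost when replicate 1, 3 or 4 of either age was left out (adjusted p up to 0.134). Mfge8, the bridge between outer segments and the integrin, had 81.1 to 99.4 CPM at 3M and 156 to 166 CPM at P29 (-0.89 ± 0.12, adjusted p = 4.04e-09), and Axl, a relative of Mertk, fell by 1.36 on the log2 scale. Without the third P29 library 1 of the 17 was called higher, and 2 were without replicate 1 or 4 at P29 or replicate 3 or 4 at 3M. Of 24 lysosome and autophagy genes, 3 rose and none fell (12.5% called, where 12% of all genes tested were called and 3.49% were higher). One of these, the protease gene Ctsb, was higher by 0.38 ± 0.08. Without the fourth 3M library 1 lysosomal gene was called higher.

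Matrix genes moved in both directions. Timp3, the metalloproteinase inhibitor that the RPE deposits in the Bruch membrane, had 10514, 10517, 10616 and 10568 CPM at 3M, against 7282, 7032, 7244 and 7439 CPM at P29 (log2 fold change 0.54 ± 0.04, adjusted p = 5.88e-20). Col8a2, a network-forming collagen chain, rose by 0.45 ± 0.06. Of 21 tested basement membrane genes these were 2 of the 3 that rose, while 7 fell (median -0.39, and 4 fell without the second P29 library). Nid1, nidogen, fell by 2.00 on the log2 scale, Col4a1, the main type IV collagen chain, by 0.96 and Vtn, vitronectin, by 1.05. Of 22 fibrillar collagens and their assembly genes, 7 fell and none rose (median -0.52). Col3a1 had 29.0, 28.9, 97.2 and 31.5 CPM at 3M, against 176, 179, 166 and 182 CPM at P29 (-1.92 ± 0.27, or -2.55 without the third 3M library). Col1a1 had 64.0, 42.0, 292 and 69.5 CPM at 3M, against 342, 383, 352 and 317 CPM at P29 (-1.58 ± 0.39, adjusted p = 0.00961). Its value was -2.57 without the third 3M library, and its call was lost in the fit to the 8 libraries (adjusted p = 0.182). Sparc, a collagen-binding matricellular protein, fell by 0.52 on the log2 scale. Markers of stromal fibroblasts, 8 of 12 of which fell, added up to 602 to 1227 CPM at 3M and 2059 to 2167 CPM at P29, all 12 were detected at both ages, and their part in the matrix result was not tested. Cldn1, a tight junction claudin, was higher by 0.41 ± 0.09 (2 of 18 junction genes rose and 2 fell). Of those falls none was called without the second P29 library or in limma voom, and 1 was without any single 3M library or in the fit to the 8 libraries.

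**Figure D2:**
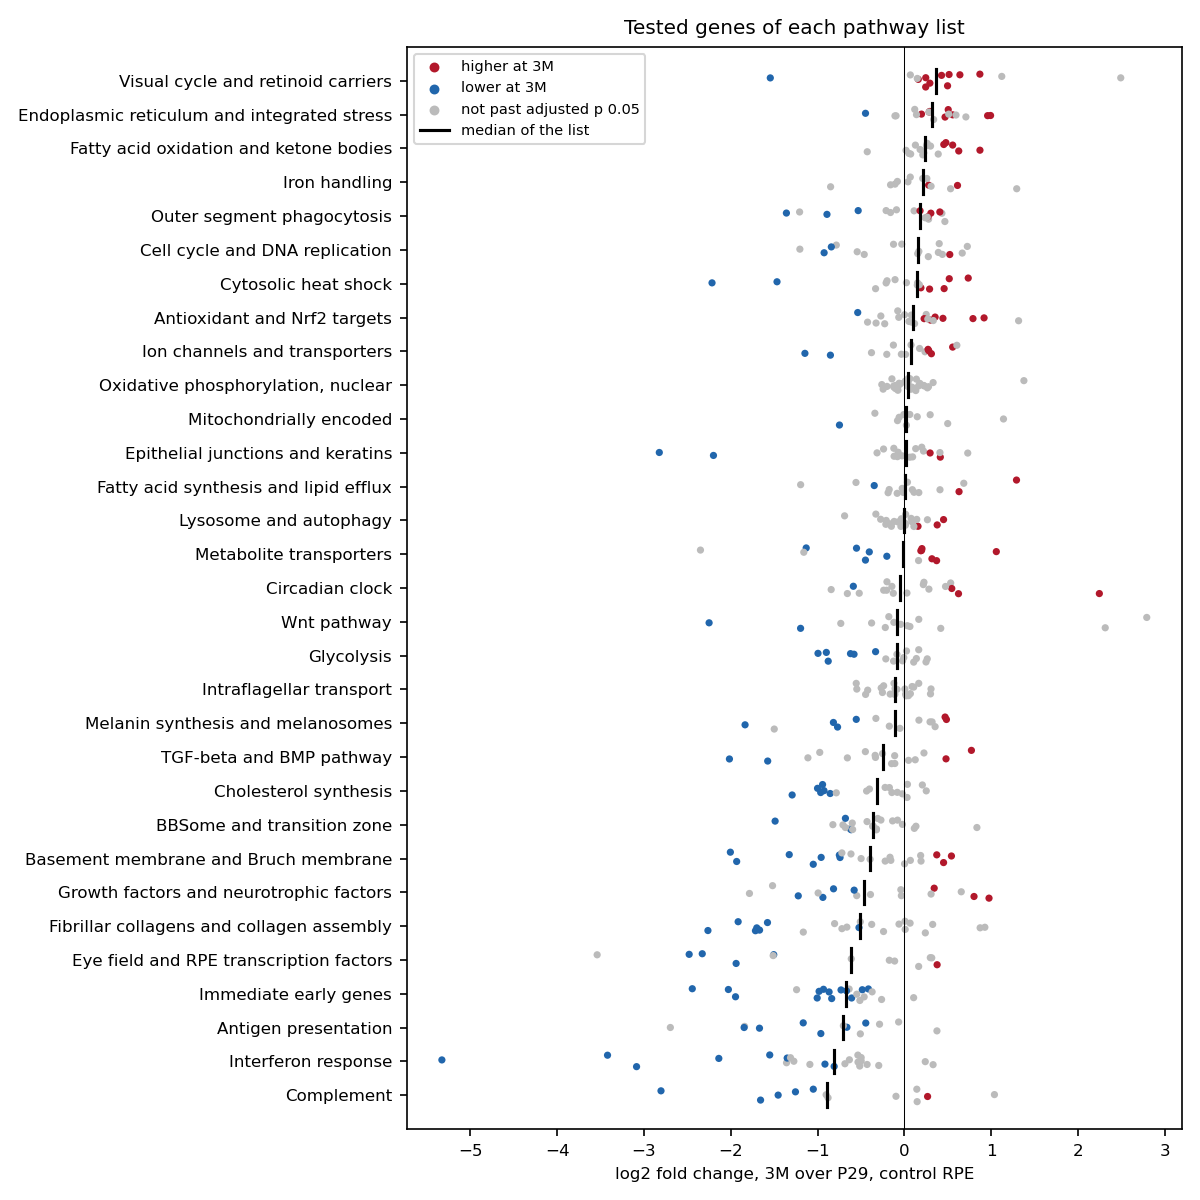
Log2 fold change, 3M over P29 in control RPE (horizontal axis), of every tested gene of 31 pathway lists, with the list median as a bar. Red and blue points passed an adjusted p of 0.05, grey ones did not. Visual cycle genes have the highest list median (0.36), and most immediate early genes lie left of 0.

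Immediate early genes fell. They encode transcription factors and feedback proteins that are induced within minutes by many stimuli, dissection included. Of 21 tested, 13 were lower and none higher, with a median of -0.67. Fosb had 148, 122, 120.3 and 127 CPM at 3M, against 485, 560, 572 and 495 CPM at P29 (log2 fold change -2.03 ± 0.11, adjusted p = 5.08e-31). Klf4 had 99.3, 56.9, 62.3 and 79.6 CPM at 3M, against 292, 283, 291 and 285 CPM at P29 (-1.95 ± 0.13, adjusted p = 5.65e-24). Nr4a2, an orphan nuclear receptor, had 13.04 to 20.6 CPM at 3M and 85.0 to 98.8 CPM at P29 (-2.44 ± 0.22). The classical members changed less but did not overlap between ages. Fos had 363 to 453 CPM at 3M and 659 to 909 CPM at P29 (-0.84 ± 0.15), Jun had 340 to 387 CPM at 3M and 562 to 655 CPM at P29 (-0.73 ± 0.09), Egr1 was lower by -0.61 ± 0.08 and Junb by -1.005 ± 0.14.

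Among 18 tested clock genes, 3 rose and 1 fell (median -0.05, and 2 fell without replicate 3 at P29 or replicate 2 at 3M). Ciart, a circadian repressor, had 59.7, 83.6, 82.8 and 57.4 CPM at 3M, against 9.64, 16.3, 12.5 and 21.8 CPM at P29 (log2 fold change 2.25 ± 0.30, adjusted p = 1.96e-09). Dbp, an output factor of the clock, had 348 to 379 CPM at 3M and 216 to 278 CPM at P29 (0.62 ± 0.10), and Bhlhe41, a repressor, was higher by 0.55 ± 0.12. Rora, a nuclear receptor that activates Bmal1, was lower by -0.59 ± 0.09. The sources used here do not state the hour of dissection. The promoter of Ciart is printed because its E-box copies are the element through which CLOCK and BMAL1 act. The motif searched was CACGTG, which reads the same on both strands and occurs in 7.15% of the 32851 windows. In the window chr3:95882179-95882478 on the minus strand (RefSeq, GRCm38.p6) it occurs 3 times, beginning 116, 58 and 44 bases before the start, in capitals.
Ciart: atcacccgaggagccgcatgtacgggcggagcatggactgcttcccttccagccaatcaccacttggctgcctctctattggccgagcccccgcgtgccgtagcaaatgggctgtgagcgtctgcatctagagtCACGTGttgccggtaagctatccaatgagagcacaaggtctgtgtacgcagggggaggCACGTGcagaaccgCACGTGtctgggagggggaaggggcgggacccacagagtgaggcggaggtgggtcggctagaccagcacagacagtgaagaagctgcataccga

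Several immune gene lists had members that fell and few or none that rose. Of 23 interferon response genes, 8 were lower and none higher (median -0.81). Of 13 antigen presentation genes 6 were lower, and of 12 complement genes 5 were lower and 1 higher, a rise that was lost without replicate 1, 2 or 4 at P29 or replicate 3 or 4 at 3M. Ifit3, an interferon-induced inhibitor of viral RNA translation, had 29.5, 28.5, 41.0 and 27.9 CPM at 3M, against 87.1, 86.5, 57.2 and 93.1 CPM at P29 (log2 fold change -1.35 ± 0.22, adjusted p = 6.33e-07). Ifi44 had 0.808 to 2.71 CPM at 3M, about the level of 3 counts, and 12.5 to 24.3 CPM at P29 (-3.42 ± 0.73). H2-Aa, a class II chain of antigen-presenting cells, had 8.72 to 15.8 CPM at 3M and 29.5 to 44.6 CPM at P29 (-1.67 ± 0.32). Serping1, the inhibitor of the first complement complex, fell by 1.25 on the log2 scale, C1qa by 1.45, C1qc by 1.66 and C4b by 2.80. Of the antigen presentation genes 2 were called lower without the first 3M library, and 3 without replicate 3 or 4 at 3M or replicate 1, 2 or 3 at P29. Markers of microglia and macrophages fell alongside, 8 of 17 being lower and 1 higher, with 5 lower without the fourth 3M library. Cx3cr1, the fractalkine receptor of microglia, was lower by -1.65 ± 0.35, while Csf1r, the receptor of colony-stimulating factor 1, had 472 to 561 CPM at 3M and 362 to 387 CPM at P29 (0.42 ± 0.08). The summed level of these 18 markers was 633 to 713 CPM at 3M and 611 to 674 CPM at P29, most of it Csf1r. Of the defining markers P2ry12 was at 0 in all 3M libraries, and the part of these cells in the immune result was not tested.

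Markers of rods and of several other neighbouring cell types fell, while those of Müller glia went both ways. All 19 rod markers fell, against a background of 8.5% of genes tested. Gnat1, rod transducin, had 458, 515, 492 and 542 CPM at 3M, against 1581, 1462, 1488 and 1574 CPM at P29 (log2 fold change -1.60 ± 0.07, adjusted p = 1.32e-39). Sag, arrestin, fell by 1.52 on the log2 scale and Pde6g, the inhibitory phosphodiesterase subunit, by 1.81. Of 10 cone markers 4 fell, among them Opn1sw, the short-wavelength opsin (-1.72 ± 0.24), and 2 of them were called without the first 3M library. Among 20 markers of inner retinal neurons 9 fell (5 without the first P29 library, and 3 in the fit to the 8 libraries). Tfap2b, a factor of amacrine cells, had 0.421 to 1.62 CPM at 3M and 7.57 to 16.6 CPM at P29 (-3.43 ± 0.42).

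Müller glia and astrocyte markers had 2 of 11 higher and 2 lower (median 0.03), and their summed level was 19308 to 21558 CPM at 3M and 17879 to 18779 CPM at P29. Of the 2 higher, 1 was Rlbp1, which is also in the RPE marker list, so the sum is not that of glia alone. With replicate 1, 2 or 4 at 3M or replicate 4 at P29 left out, 1 was called higher. Members of the vessel, stroma, lens and myelin lists fell. Of 13 endothelial markers 9 fell, and 4 in the fit to the 8 libraries. Kdr, the main VEGF receptor of endothelium, had 0.452 to 6.10 CPM at 3M and 19.8 to 31.8 CPM at P29 (-2.93 ± 0.31). Dcn, decorin of stromal cells, had 260 to 313 CPM at 3M and 646 to 760 CPM at P29 (-1.31 ± 0.08). Cryaa had 0 counts over the 3M libraries and 60 over the P29 libraries, at least 18.6-fold lower at 3M against a floor of 3 counts over the group, and Cryba1 had 0 counts at 3M and 42 at P29, at least 13.05-fold lower. Of 15 lens markers 10 fell, while none fell in the fit to the 8 libraries and 3 fell in limma voom on all 24. Of 11 myelin markers 6 fell, with 2 in the fit to the 8 libraries, and their summed level was 1037 to 1209 CPM at 3M and 1041 to 1128 CPM at P29. Mbp was lower by -0.998 ± 0.18, and Mobp had 3 counts at 3M and 93 at P29, a depth-scaled ratio of P29 over 3M of 28.9 (95% exact binomial interval 9.59 to 143, covering counting error only). Hbb-bs, a globin gene of red cells that shares sequence with other globins, had 998 to 1071 CPM at 3M and 1104 to 1362 CPM at P29 (-0.28 ± 0.05), and its call was lost in limma voom with quality weights (adjusted p = 0.184). Hba-a2 was lower by -0.50 ± 0.06.

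**Figure D3:**
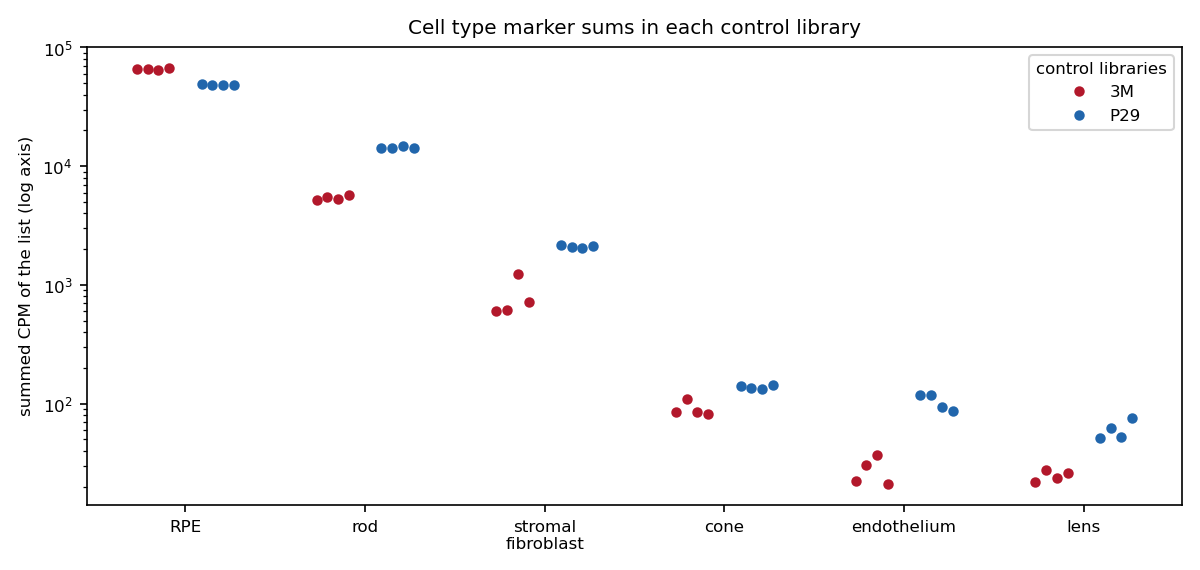
Summed CPM (log axis) of the markers of 6 cell types in each control library at 3M (red) and P29 (blue). The RPE sum was higher at 3M, and the rod sum lay between 5221 and 5680 CPM at 3M and between 14174 and 14702 CPM at P29. In stroma the third 3M library is the highest of its age.

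Of the transcription factors of the eye field and RPE, more fell than rose. Of 13 tested, 4 fell and 1 rose (2 without the third 3M library). Otx2, which RPE and photoreceptors share, had 1304 to 1468 CPM at 3M and 1034 to 1151 CPM at P29 (log2 fold change 0.38 ± 0.06, adjusted p = 1.63e-06). Crx, its photoreceptor counterpart, had 15.6 to 29.2 CPM at 3M and 83.7 to 100.3 CPM at P29 (-1.94 ± 0.14). Rax, an early eye field factor, was lower by -2.48 ± 0.29 and Pax6, the master regulator of eye development, by -1.50 ± 0.32. Rod markers and some markers of inner retinal neurons also fell over this step, and their part in these falls was not tested. Of 16 growth factor genes 3 rose and 4 fell. Pdgfa, a platelet-derived growth factor chain, was higher by 0.80 ± 0.13 and Igfbp2, an IGF-binding protein, by 0.97 ± 0.17. Igfbp5, another such protein, had 615 to 708 CPM at 3M and 1092 to 1215 CPM at P29 (-0.82 ± 0.07, adjusted p = 1.66e-18). In the TGF-beta and BMP list 2 of 17 rose and 2 fell, with 1 rise without replicate 2 or 4 at P29 or replicate 2 or 3 at 3M and 1 fall in limma voom. Bmp7 was higher by 0.77 ± 0.18 and Tgfb2 lower by -1.57 ± 0.26. Of 14 Wnt genes 2 fell, and of 17 cell cycle genes 1 rose and 2 fell (4 without the third 3M library). The calls were 14.3% of the Wnt and 17.6% of the cell cycle genes, against 12% of all genes tested.

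Few cilium genes passed the test. None of 23 intraflagellar transport genes passed in edgeR, where the smallest adjusted p was 0.117, nor did any in limma voom. Ift20, the subunit that links the Golgi to the cilium and the gene targeted in the mutants, had 118, 160, 126 and 133 CPM at 3M, against 121, 84.9, 124 and 102 CPM at P29 in controls (log2 fold change 0.31 ± 0.15, adjusted p = 0.204). In mutants it had 97.4 to 117 CPM at 3M and 57.9 to 88.8 CPM at P29. A tag from the 3′ end does not test an exon deletion upstream, so these levels do not check the genotype labels. Of 22 BBSome and transition zone genes 3 fell and none rose, and 1 fell without the first P29 library. The 3 are 13.6% of these genes, where 12% of all genes tested were called and 8.5% were lower.

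The largest rises in controls, among genes chosen for 5 CPM or more in 1 age and no overlap between the ages, included genes of several kinds. Sult1c1, a cytosolic sulfotransferase on chromosome 17 (53961615 to 53990674, GRCm38), had 300.4, 306, 289 and 312 CPM at 3M, against 91.7, 51.0, 68.6 and 63.4 CPM at P29 (log2 fold change 2.13 ± 0.13, adjusted p = 1.13e-27). Fam107a, an actin-associated protein, had 122 to 161 CPM at 3M and 35.5 to 51.6 CPM at P29 (1.74 ± 0.19). Mtor, the kinase that couples nutrients to growth, had 107, 118, 112 and 128 CPM at 3M, against 38.9, 38.3, 53.5 and 43.6 CPM at P29 (1.41 ± 0.18, adjusted p = 3.34e-10). Mob3b, a Mob family kinase activator, was higher by 1.52 ± 0.20, and Dgkb, a diacylglycerol kinase, had 17.2 to 28.6 CPM at 3M and 1.11 to 6.93 CPM at P29 (2.80 ± 0.42).

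Among the largest falls were genes close to the detection floor at 3M. Fcgr4, an Fc receptor of macrophages, had 0 counts over the 3M libraries and 57 over the P29 libraries, at least 17.7-fold lower. Creb5, a CREB family transcription factor, had 2 counts at 3M and 105 at P29, a depth-scaled ratio of P29 over 3M of 48.9 (95% exact binomial interval 13.2 to 409). Itih5, a hyaluronan-binding matrix protein, had 0 to 0.842 CPM at 3M and 10.4 to 19.5 CPM at P29, under 3 counts in each 3M library. Iigp1, an interferon-induced GTPase, had 0.404 to 2.62 CPM at 3M and 20.6 to 25.8 CPM at P29 (-3.61 ± 0.57), and Ednrb, an endothelin receptor of melanocytes and glia, had 0.421 to 0.872 CPM at 3M and 3.69 to 12.9 CPM at P29 (-3.55 ± 0.61).

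The same step in the mutants used 8 other libraries. Of the 429 genes that rose in controls, 397 (92.5%) had a positive change in mutants and 238 (55.5%) were called higher there too. Of the 1046 that fell, 970 (92.7%) had a negative change and 550 (52.6%) were called lower. The same-sign share over all tested genes was not calculated, so the 92.5% and 92.7% have no background beside them. In all, 669 genes were called higher in mutants (5.44% of genes tested) and 895 lower (7.27%). The 238 are thus 35.6% of the mutant rises and the 550 are 61.5% of the mutant falls. Xist was steady over this step in mutants, at 425 to 479 CPM at 3M and 410 to 494 CPM at P29 (log2 fold change -0.01 ± 0.17), unlike in controls. Rod markers still fell in mutants, with sums of 9171 to 9614 CPM at 3M and 19770 to 21147 CPM at P29. Lens markers in mutants added up to 25.7 to 39.4 CPM at 3M and 1283 to 1339 CPM at P29.

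Values of some of the same genes in mutants are set beside those of controls. Sult1c1 rose by 2.12 ± 0.12 on the log2 scale there, Ciart by 2.25 ± 0.31, Mtor by 1.31 ± 0.18, Mt2 by 0.81 ± 0.06, Trf by 0.75 ± 0.04 and Timp3 by 0.61 ± 0.04. Pmel was lower by -2.23 ± 0.09, Tyrp1 by -0.999 ± 0.09 and Nr4a2 by -1.94 ± 0.22. The visual cycle list again had 9 higher and 1 lower of 14 (median 0.44), and all 19 rod markers fell again. Several other lists had fewer calls in mutants, which is not itself a test of a genotype difference. Of 18 cholesterol synthesis genes none was called in mutants, against 6 lower in controls. Of 13 antigen presentation genes 1 was higher and none lower, against 6 lower in controls. Of 23 interferon genes 1 was higher and 2 lower, against 8 lower in controls. Of 17 microglia and macrophage markers 2 were higher and 2 lower, against 1 and 8 in controls. A genotype difference in the age change was called for 2 of these cholesterol, 1 antigen presentation, 1 interferon and 0 microglia and macrophage genes. The microglia and macrophage median log2 fold change was -1.12 in controls and -0.64 in mutants. The age change differed between the genotypes for 105 genes (0.853% of genes tested), more positive in mutants for 75 and more negative for 30, of which 20 had risen and 54 had fallen in controls.

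Genotype differences included members of several lists described above. Of the 18 ER and integrated stress genes none was called in either direction in mutants, against 9 in controls, and 4 differed between genotypes. Xbp1 had 44.9 to 59.0 CPM at 3M and 56.2 to 71.3 CPM at P29 in mutants (log2 fold change -0.34 ± 0.19), and its change minus that of controls was -1.33 (adjusted p = 0.00076). For Hspa5 the mutant change was -0.16 ± 0.07 (difference -0.63, adjusted p = 4.25e-06). Of 21 immediate early genes 6 differed. Fosb had 204 to 231 CPM at 3M and 288 to 351 CPM at P29 in mutants (-0.55 ± 0.10, difference 1.48, adjusted p = 2.18e-12), and Klf4 had 133 to 166 CPM at 3M and 139.9 to 194 CPM at P29 (-0.22 ± 0.13, difference 1.73, adjusted p = 8.41e-12). Rgr rose more in mutants, to 9823 to 11098 CPM at 3M, against 3858 to 4136 CPM at P29 (1.39 ± 0.05, difference 0.52, adjusted p = 2.81e-09). Thbs1, thrombospondin, went opposite ways, with 173 to 213 CPM at 3M and 320 to 372 CPM at P29 in mutants (-0.76 ± 0.10), and in controls 233 to 310.4 CPM at 3M and 193 to 264 CPM at P29 (0.33 ± 0.09, adjusted p = 0.00872). The call in controls was lost without the fourth P29 library (0.27, adjusted p = 0.0769) or the fourth 3M library (0.29, adjusted p = 0.0555).

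**Figure D4:**
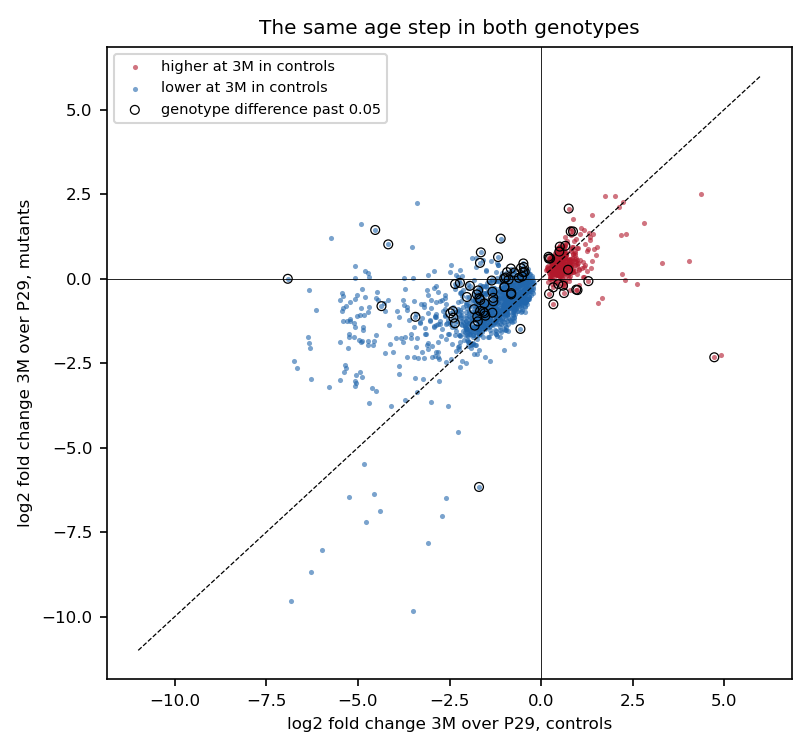
Log2 fold change, 3M over P29, in mutants (vertical axis) against controls (horizontal axis) for genes called higher (red) or lower (blue) in controls, with equality as the dashed line and called genotype differences circled. Of the genes that rose in controls 92.5% lie above 0 in mutants, and of those that fell 92.7% lie below 0. The same-sign share over all tested genes was not calculated.

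The step from P11 to P29 in controls places these changes in time. It uses the same P29 libraries, so its values are only set beside those above. At that earlier step 2026 genes were called higher (16.5% of genes tested) and 1917 lower (15.6%), 32% in either direction. Rgr averaged 1342 ± 86.3, 5521 ± 141 and 10087 ± 286 CPM at P11, P29 and 3M (SD, n = 4 each), Rpe65 averaged 2412 ± 12.7, 7667 ± 219 and 8568 ± 290.2 CPM, and Sult1c1 averaged 3.64 ± 1.91, 68.7 ± 17.05 and 302 ± 9.72 CPM. Mt2 averaged 642 ± 55.2, 2842 ± 39.3 and 5369 ± 406 CPM at the 3 ages. For these genes both steps were upward, and for Rpe65 the later one was small. Pmel averaged 2140 ± 131, 327 ± 27.2 and 91.6 ± 12.4 CPM, falling at both steps, and Dct averaged 7429 ± 439, 4699 ± 235 and 2666 ± 135 CPM.

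Other groups turned at P29. Of the 21 immediate early genes 17 were called higher at P29 than at P11 and none lower, where 13 were lower at 3M than at P29. Fosb averaged 110.0 ± 11.5, 528 ± 44.4 and 129 ± 12.8 CPM at P11, P29 and 3M, and Klf4 averaged 81.6 ± 16.4, 288 ± 4.51 and 74.5 ± 19.1 CPM. Of 23 interferon genes 16 were higher at P29 than at P11 and 1 lower, where 8 were lower at 3M. Ifit3 averaged 16.04 ± 7.85, 81.0 ± 16.2 and 31.7 ± 6.22 CPM, and H2-Aa averaged 6.41 ± 1.48, 39.0 ± 6.83 and 12.2 ± 2.96 CPM. Hk2 averaged 20.2 ± 8.26, 97.9 ± 25.1 and 48.9 ± 3.01 CPM. Since the P29 libraries are shared, a high value in them gives a rise before and a fall after.

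**Figure D5:**
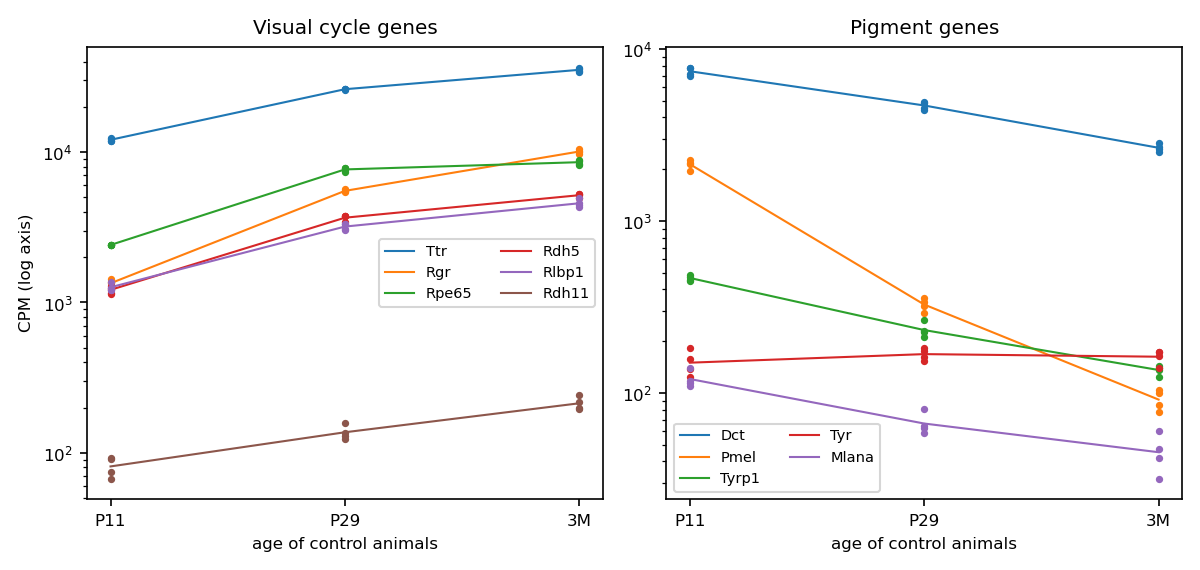
CPM (log axis) of visual cycle genes (left) and pigment genes (right) in control libraries at P11, P29 and 3M, with points for libraries and lines through the means. Visual cycle means rise at each age, Rgr to 10087 CPM at 3M, while Pmel falls to 91.6 CPM and Tyr stays between 125 and 182 CPM.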

How the data were processed

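RNA of isolated mouse RPE was sequenced from the 3′ end (QuantSeq 3′ mRNA-Seq, primed on poly(A), single-end), per the labels' protocols. The submitters' processing notes name STAR and mm10, with no version, and the sources used here state no counting tool, annotation, strand setting or molecular identifiers. The authors deposited 1 table of raw counts per gene for each library, with 5 summary rows that were left out of library sizes and tests. Over the 8 libraries the no-feature row averaged 19.3% at 3M and 21.4% at P29.

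All 24 libraries (6 groups of 4) were fitted together with 1 mean per group in edgeR 4.0.16 (R 4.3.3), using TMM factors, the default filter on low counts and the robust quasi-likelihood test. Genes at a Benjamini-Hochberg adjusted p under 0.05 over 12303 tested genes were called, and 18750 genes were not tested. Standard errors were derived from each log2 fold change and its F statistic. Summed marker levels use CPM over all genes. The script was tested on simulated data: of 200 genes changed in the 3M against P29 control comparison, over 12303 genes, 29.9% were recovered at 1.5-fold, 59.7% at 2-fold and 95.5% at 4-fold. Floors and intervals cover counting error only. Alternatives used limma 3.58.1 and DESeq2 1.42.0.

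The genes named were Ift20, the 15 largest rises and falls with at least 5 CPM and no overlap between ages, up to 5 members with the smallest p of each list, any called list member, and the 5 genes with the smallest p for a genotype difference. The libraries, 31 pathway lists and 19 marker lists were chosen with earlier results of these data known. Symbols and positions came from GENCODE (GRCm38) and promoters from RefSeq (GRCm38.p6).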

Additional observations from a re-analysis of the deposited data

Results flagged for a closer look

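Of 242 groups of 4 libraries examined, 16 had 1 library far from the other 3 by Dixon's gap test, and chance flags about 1 in 20 groups. In the third 3M library of controls this held for Rdh5 (4966 CPM), Col1a1 (292 CPM), Col3a1 (97.2 CPM), Ifit3 (41 CPM), Pax6 (9.15 CPM) and Xist (4.79 CPM). In the third P29 library of controls this held for Rdh5 (3406 CPM). In the first 3M library of controls this held for C1qa (16.8 CPM), Crx (15.6 CPM) and Mobp (1.26 CPM). In the second P29 library of controls this held for Crx (83.7 CPM) and Sag (1069 CPM). In the first P29 library of controls this held for Xist (138 CPM). In the fourth 3M library of controls this held for Iigp1 (0.404 CPM). In the second 3M library of controls this held for Thbs1 (233 CPM). In the second P29 library it held for reads without a unique position (31.9%).

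The age change, 3M over P29, differed between mutants and controls for 30 of the named genes (mutants minus controls, log2, adjusted p under 0.05 in edgeR's quasi-likelihood test of the difference). The change was more positive in mutants for Rgr (0.52), Rdh5 (0.30), Lrat (0.35), Dct (0.35), Atf4 (0.64), Hspa1b (2.09), Hmgcs1 (0.75), Msmo1 (0.99), Slc22a8 (0.86), Fosb (1.48), Klf4 (1.73), Egr1 (0.63), Junb (0.75), Jun (0.91), Ifit3 (1.29), H2-Aa (2.13), Rax (1.45), Sag (0.42), Pde6g (0.42), Opn1sw (1.37), Tfap2b (2.30), Dcn (0.63), Xist (6.91) and Igfbp5 (0.39). It was more negative in mutants for Xbp1 (-1.33), Manf (-1.29), Hspa5 (-0.63), Cryab (-0.47), Srebf1 (-1.37) and Thbs1 (-1.10). Xist differed between the ages in controls (adjusted p = 3.87e-12) and had a log2 fold change of -0.01 in mutants, and the part of sex makeup in these differences was not tested.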

How the results depend on the processing

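With 1 library left out, 317 to 379 genes were higher at 3M than at P29 in controls and 856 to 970 lower, and 107 of the 110 named genes called kept their call throughout. The named genes were chosen largely by their changes or p in these same libraries, so this does not describe all called genes. The difference in ambiguous reads, 3M minus P29, was 0.0148 percentage points, and 0.0123 to 0.0174 with 1 library left out, where its exact permutation p missed the threshold in 5 cases. Median-of-ratios scaling gave 478 higher and 1014 lower, DESeq2 535 and 1107, limma voom with quality weights 507 and 831, no low-count filter 436 and 957, a stricter filter 433 and 1046, and the fit to the 8 libraries 563 and 800. Autosomal genes alone, an alternative chosen after seeing the data, gave 418 and 1031. A test against a 1.5-fold change, chosen likewise, gave 22 higher and 445 lower.

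Same-numbered libraries did not deviate together (correlations -0.0034 to 0.0193 over 4 pairs, 2 of 4 best with their own number), so the numbers do not pair samples. With a replicate block 422 genes were higher and 1017 lower in controls, 662 and 860 in mutants, 2039 and 1859 at P29 against P11, and 104 differed by genotype.

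The sex score as a covariate left 17 calls upward and 48 downward. The log2 fold changes that reversed were Atf4 0.17, Car14 -0.0732, Col8a2 -0.0183, Nid1 1.08, Col4a1 0.64, Col1a1 2.95, Col3a1 1.25, Ifit3 0.17 and Pax6 1.33, of which Col1a1 passed the threshold (adjusted p = 0.0324). The rod score left 1 call each way, and those that reversed, none of which passed (smallest adjusted p = 0.846), were Rdh5 -0.0671, Rlbp1 -0.25, Rpe65 -0.53, Pmel 0.19, Mlana 0.76, Mt1 -0.0022, Hspa5 -0.69, Cryab -0.28, Hmgcs1 0.0591, Msmo1 3.48, Ldha 0.48, Slc38a2 0.41, Mertk -2.78, Axl 1.31, Timp3 -0.20, Nid1 1.63, Col4a1 0.14, Fos 3.23, Ciart -1.05, Rora 2.77, H2-Aa 1.87, C1qc 0.59, Serping1 1.97, Tfap2b 2.52, Cryba1 4.77, Dgkb -2.05, Fcgr4 9.44, Creb5 3.31, Igfbp2 -3.63, Bmp7 -1.20 and Tgfb2 1.70. Both scores vary almost wholly between the 6 groups of genotype and age, which leaves little to estimate an age change from. Depth limits genes near 3 counts per library.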
